A study of Homo sapiens with 6 samples.

Results

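The 2 libraries described here are the control libraries of a knockdown experiment in human forebrain neuron progenitor cells at day 26. The cells were derived from the established embryonic stem cell line H9 (wild-type genotype) and had received a scrambled sequence as the control treatment. The series holds 6 libraries in 3 groups of 2, and the other groups, labelled circRTN4 shRNA1 and circRTN4 shRNA2, are knockdowns of circRTN4(2,3), a circular RNA; they were not used here. The profile was defined as the genes at 1 FPKM or more in both scramble libraries. FPKM is the number of sequenced fragments on a gene, divided by the length of its exons and by the depth of the library, so levels of different genes can be set side by side. This rule kept 16731 of 59151 genes (28.3% of all genes in the table), and 10124 of 18472 protein-coding genes (54.8%). Just inside the threshold, DGAT1 stood at 1.0002 and 1.73 FPKM in replicates 1 and 2 and KATNAL2 at 1.07 and 1.0011 FPKM; just outside it, METTL4 stood at 1.0035 and 0.9996 FPKM. All pairs of values below are in the order replicate 1, replicate 2. The median over all protein-coding genes was 1.36 and 1.49 FPKM. This median and the share of 54.8% are the background for the gene lists below. Whether the replicates were separate cultures is not given in the labels, so the spread between them may be technical.

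Forebrain progenitors derived from pluripotent cells are radial glia-like cells that line the rosettes of a neural culture, divide, and give rise to neurons. LHX2 and SIX3 are genes of the anterior forebrain. In the telencephalon, EMX2, EMX1 and PAX6 mark the dorsal (cortical) side, GSX2 and the DLX genes mark the ganglionic eminences on the ventral side, from which GABA neurons arise, and NKX2-1 marks the medial eminence. HOX, EN and IRX genes mark more posterior parts of the nervous system. These are bulk libraries: a low level can come from few cells that express a gene or from little RNA per cell, and these cannot be told apart.

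The libraries were of unequal depth. Genes with a single read (674 in replicate 1 and 637 in replicate 2) gave, with their exon lengths, totals of 46634855 and 77187298 reads, so 3 reads on a gene of 1 kb correspond to 0.0643 and 0.0389 FPKM. Protein-coding genes agreed closely, with 96.2% of the 10124 members within 1.5-fold of each other and a median difference of 1.13-fold. Only 8 of these members were over 2-fold higher in replicate 2 and 0 were over 2-fold higher in replicate 1. Small structured RNAs agreed less well: 177 of 1409 were over 2-fold apart. These counts cover only genes at 1 FPKM or more in both libraries, which leaves out genes that differ across the threshold. Over all classes, 2494 genes reached 1 FPKM in 1 library only.

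The 5 genes chosen to check the label were all present. VIM, an intermediate filament of progenitors (chr10:17228241-17237593), stood at 54.6 and 60.3 FPKM, and NES, another intermediate filament of neural progenitors (chr1:156668763-156677407), at 48.6 and 51.4 FPKM. Both were among the 126 highest of 18472 protein-coding genes by mean level. DLX5, a homeobox gene of the ganglionic eminences (chr7:97020396-97024831), stood at 10.2 and 11.3 FPKM, and EMX2, a homeobox gene of the dorsal telencephalon (chr10:117542746-117549546), at 6.86 and 7.36 FPKM. PAX6, a paired-box gene of dorsal radial glia (chr11:31789026-31817961), stood lowest at 3.31 and 3.17 FPKM, at rank 5458. Positions are those of RefSeq on GRCh38.p14.

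The FPKM value of PAX6 depends on the length by which its reads are divided. The exons of all PAX6 transcripts annotated in GENCODE release 29 together span 20812 bases, against 3262 bases for EMX2. The values correspond to 3216 and 5088 reads on PAX6 and to 1044 and 1853 reads on EMX2, so PAX6 had more reads in each library. With the same reads divided by the longest annotated transcript alone (7290 bases), PAX6 stood at 9.46 and 9.04 FPKM. EMX2 stood at 7.73 and 8.29 FPKM, so the order of the 2 genes changed. Reads on exon bases outside that transcript were still counted, so this rescaling cannot settle which gene is higher. This alternative was chosen after seeing the data. It left the levels of NES and SOX2 as they were and raised DLX1 to 38.7 and 44.2 FPKM. In addition, 25.2% of the PAX6 exon bases overlap exons of ELP4 on the opposite strand (1.58 and 1.33 FPKM), and the strand setting of the counting is not given in the sources used here.

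Of 24 progenitor genes, 22 were at 1 FPKM or more in both libraries and 19 were at 5 FPKM or more. CDH2, the N-cadherin of apical junctions, was the highest at 63.5 and 59.1 FPKM. SFRP1, a secreted WNT inhibitor, stood at 52.7 and 55.1 FPKM. The SOXB1 factors that maintain the neural progenitor state were ordered SOX2 at 32.7 and 31 FPKM, SOX1 at 16.2 and 18 FPKM and SOX3 at 7.60 and 10.7 FPKM, and the ranges of the 3 genes did not overlap. FABP7, a fatty acid binding protein of radial glia, stood at 19 and 18 FPKM, and NR2E1, a nuclear receptor of forebrain progenitors, at 7.41 and 8.08 FPKM. The 2 genes below the threshold were TFAP2C at 0.910 and 0.927 FPKM and POU3F4 at 0.593 and 0.487 FPKM. A list of outer radial glia genes was mixed: 5 of 8 passed (62.5%, against 54.8% of protein-coding genes). It was led by PTPRZ1 at 33.5 and 29.4 FPKM and PEA15 at 29.1 and 34.1 FPKM. HOPX, a marker of that cell type, stood at 0.0713 and 0.115 FPKM.

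All 13 S-phase genes and all 13 mitosis genes were present. PCNA, the sliding clamp of DNA replication, stood at 24.1 and 23.6 FPKM and the replicative helicase subunit MCM7 at 14.5 and 17.8 FPKM. TOP2A, a topoisomerase of dividing cells, stood at 30.9 and 25.9 FPKM and MKI67, the gene of the Ki-67 antigen, at 14.9 and 13.7 FPKM. Among the G1 cyclins, CCND2 at 34.7 and 34.9 FPKM was 4.70-fold and 4.54-fold above CCND1, and CCND3 stood at 0.784 and 0.925 FPKM. Among inhibitors of cyclin-dependent kinases, CDKN1B was highest at 13.9 and 14.5 FPKM and CDKN2A was at 0.0361 and 0.0218 FPKM.

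Genes that mark early progenitors were all present. IGF2BP1, an RNA-binding protein of fetal tissue, stood at 24.5 and 25.6 FPKM, HMGA2, a chromatin protein of young neural stem cells, at 8.13 and 7.21 FPKM, and LIN28B, an inhibitor of let-7 processing, at 7.09 and 5.99 FPKM, which was 3.41-fold and 2.45-fold above its paralog LIN28A. Of 6 genes associated with later progenitors, 5 passed. ZBTB18, a zinc finger repressor, was the highest of these at 7.91 and 7.55 FPKM, above LIN28B and close to HMGA2, and ZBTB20 stood at 4.21 and 3.56 FPKM. Of the NFI genes, NFIA stood at 3.09 and 2.77 FPKM, above LIN28A at 2.08 and 2.45 FPKM, NFIB at 1.47 and 1.33 FPKM and NFIX at 0.0347 and 0.0769 FPKM. The median over the list was 7.69 and 7.09 FPKM for the early genes and 2.57 and 2.77 FPKM for the late genes.

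Forebrain genes were present and posterior genes were near 0. LHX2, a LIM homeobox gene of cortical progenitors, stood at 11.9 and 13 FPKM, SIX3, a homeobox gene of the anterior neural plate, at 11.2 and 12.8 FPKM, and OTX2, an anterior homeobox gene, at 11.2 and 11.8 FPKM. OTX1 stood at 1.80 and 2.03 FPKM, so that OTX2 was 6.24-fold and 5.82-fold higher. In all, 12 of 13 pan-forebrain genes passed, and the other one was HESX1 at 0.237 and 0.339 FPKM, a homeobox gene of the early anterior neural plate. Against these, 0 of 14 midbrain and isthmus genes passed: EN1 had 0 reads in both libraries, EN2 stood at 0.0253 and 0.00382 FPKM and PAX3, the highest of that list, at 0.429 and 0.425 FPKM. Of 30 HOX genes 0 passed, and HOXB2 was the highest at 0.110 and 0.103 FPKM.

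**Figure D1:**
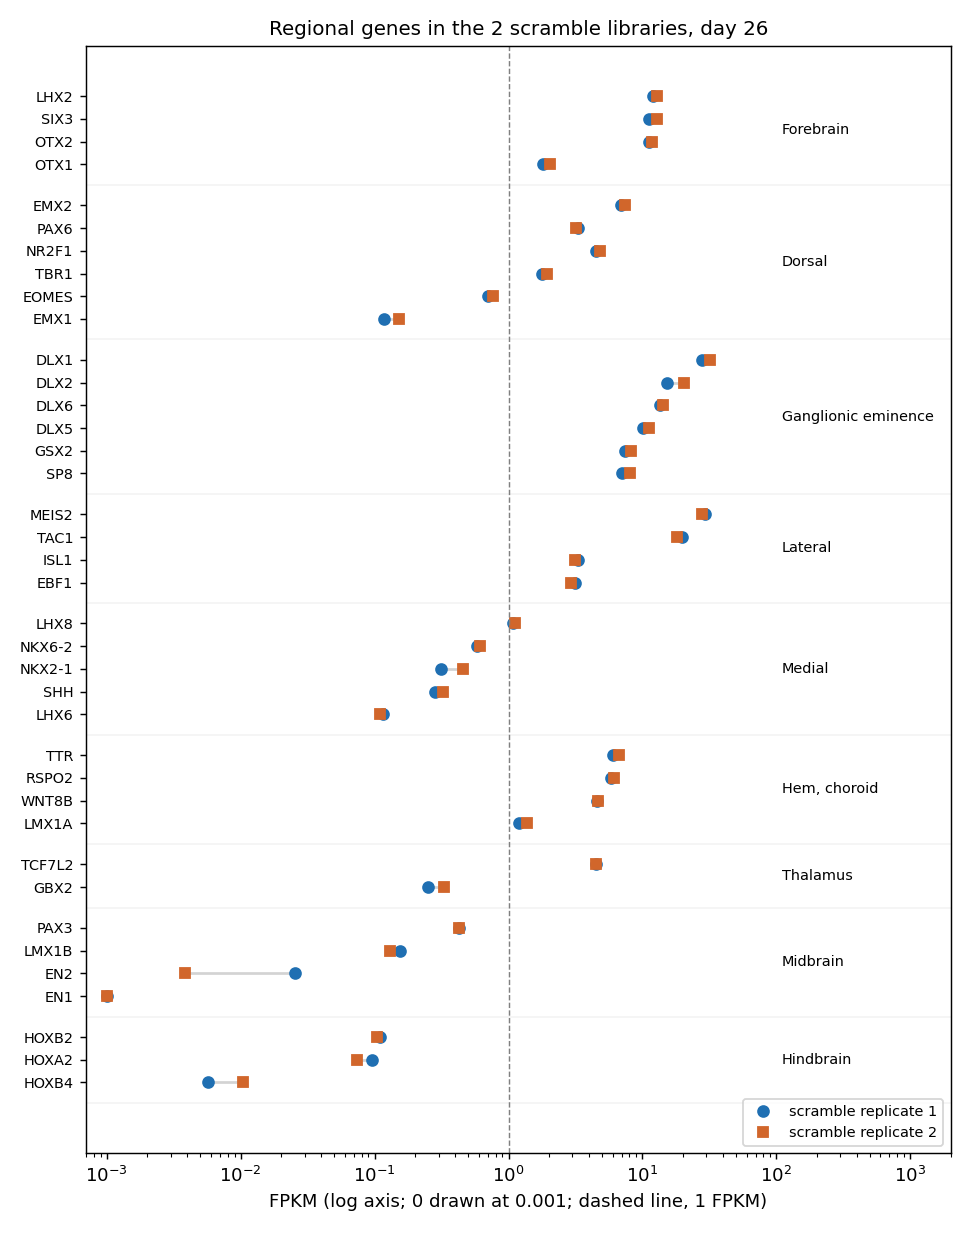
FPKM of regional genes (horizontal log axis) in scramble replicate 1 (blue circles) and replicate 2 (orange squares), grouped by the region that each gene marks; a value of 0 is drawn at 0.001 and the dashed line is 1 FPKM. LHX2, SIX3 and OTX2 lie between 11.2 and 13 FPKM, the DLX genes lie between 10.2 and 31.9 FPKM, and the midbrain genes and HOX genes shown lie below 0.5 FPKM.

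Ganglionic eminence genes stood above most dorsal genes. Of 10 genes shared by the eminences, 9 passed, with a list median of 10.4 and 11.7 FPKM. DLX1 stood at 27.9 and 31.9 FPKM and DLX2 at 15.2 and 20.5 FPKM; they lie 9763 bases apart on chromosome 2, and DLX1 was 1.83-fold and 1.55-fold higher. DLX6 stood at 13.6 and 14.2 FPKM and was 1.34-fold and 1.26-fold above DLX5, its neighbour at 9355 bases on chromosome 7. GSX2, a homeobox gene of lateral eminence progenitors, stood at 7.47 and 8.22 FPKM, and SP8, a zinc finger factor, at 7.03 and 8.03 FPKM. GSX1, the paralog of GSX2, was the gene that did not pass, at 0.0645 and 0.195 FPKM.

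Of 14 dorsal telencephalon genes, 9 passed (64.3%), with a list median of 1.61 and 1.82 FPKM. Both are near the values over all protein-coding genes, 54.8% and 1.36 and 1.49 FPKM. The genes of this list are all transcription factors, and across the transcription factor families described below 34.2% passed. The highest were LHX2 and GLI3, a zinc finger factor of the SHH pathway, at 11 and 12 FPKM; both are also in other lists. EMX2 exceeded its paralog EMX1, at 0.117 and 0.152 FPKM, by 58.6-fold and 48.3-fold. EMX2 and GSX2, a dorsal and a ventral gene, were close, with a ratio of 0.918 and 0.895. NEUROG2, a proneural factor of cortical progenitors, stood at 1.46 and 1.68 FPKM, TBR1, a T-box gene of young deep-layer neurons, at 1.77 and 1.95 FPKM, and EOMES, a T-box gene of intermediate progenitors, at 0.705 and 0.763 FPKM.

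Within the ventral genes, those of the lateral eminence (list median 2.45 and 2.38 FPKM, 10 of 14 passed) stood above those of the medial eminence (0.613 and 0.652 FPKM). MEIS2, a TALE homeobox gene, stood at 29.2 and 27.6 FPKM, and TAC1, the precursor gene of substance P, at 19.7 and 18.2 FPKM. ISL1 and EBF1, factors of striatal projection neurons, stood at 3.33 and 3.15 FPKM and at 3.11 and 2.95 FPKM. Markers of mature striatal neurons were low: DRD1, a dopamine receptor, stood at 0.0741 and 0.0415 FPKM, and PPP1R1B, which encodes DARPP-32, at 0.282 and 0.306 FPKM. In the caudal eminence list 3 of 6 genes passed, with a list median of 1.55 and 1.365 FPKM. They were SP8, NR2F1 at 4.52 and 4.84 FPKM and NR2F2 at 2.37 and 2.07 FPKM. All of these are also in other lists. PROX1 stood at 0.737 and 0.658 FPKM, and HTR3A was at 0 in both libraries. For the medial eminence 3 of 8 genes passed, among them SOX6 at 3.57 and 3.19 FPKM and LHX8 at 1.09 and 1.13 FPKM. NKX2-1, the homeobox gene that specifies the medial eminence, stood at 0.316 and 0.459 FPKM, and LHX6, which acts in its interneurons, at 0.116 and 0.109 FPKM; PAX6 was 10.5-fold and 6.90-fold above NKX2-1.

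SHH, the ventralizing ligand, stood at 0.281 and 0.322 FPKM. Its receptor gene PTCH1 was at 3.10 and 3.41 FPKM, the signal transducer SMO at 5.35 and 7.08 FPKM and the coreceptor CDON at 8.19 and 8.62 FPKM. GLI1, a target gene of the pathway, was at 0.0676 and 0.0554 FPKM, while GLI3, mainly its repressor, was the highest of the 11 pathway genes. The FGF ligands of the anterior midline were also low, with FGF8 at 0.0764 and 0.194 FPKM and FGF17 at 0.198 and 0.154 FPKM. The receptor genes FGFR2, at 7.66 and 7.76 FPKM, and FGFR1, at 4.11 and 5.35 FPKM, were present, as were the FGF target genes ETV5, at 3.14 and 3.31 FPKM, and SPRY2, at 2.75 and 3.16 FPKM.

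The cortical hem, roof plate and choroid plexus list held 11 of 19 genes at 1 FPKM or more (57.9%). This is near the 54.8% of protein-coding genes. The list median of 1.18 and 1.32 FPKM was below the protein-coding median of 1.36 and 1.49 FPKM. TTR, which encodes the thyroxine carrier secreted by the choroid plexus, stood at 6.03 and 6.63 FPKM. RSPO2, a WNT agonist, stood at 5.79 and 6.17 FPKM and WNT8B, a ligand of the hem, at 4.55 and 4.68 FPKM. The roof plate factor LMX1A was at 1.20 and 1.37 FPKM. Other choroid plexus genes were low: KCNJ13, a potassium channel, stood at 1.16 and 1.27 FPKM, CLIC6 at 0.267 and 0.235 FPKM, AQP1, a water channel, at 0.215 and 0.126 FPKM and FOLR1, a folate receptor, at 0.103 and 0.0856 FPKM.

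Few genes of other brain regions passed. In the thalamus list it was 1 of 9, TCF7L2, a WNT effector, at 4.49 and 4.54 FPKM. In the hypothalamus list it was 1 of 11, FEZF1 at 3.21 and 3.93 FPKM, which is also a forebrain gene, and OTP, a factor of hypothalamic neurons, stood at 0.0241 and 0.0349 FPKM. In the hindbrain and spinal cord list it was 1 of 15. In the eye list it was 3 of 13, among them ATOH7, a factor of retinal ganglion cells, at 1.14 and 1.28 FPKM. BEST1, a chloride channel of pigment epithelium, stood at 8.30 and 10.03 FPKM, and 14.2% of its exon bases overlap exons of FTH1, a ferritin gene on the opposite strand at 45 and 58 FPKM. RAX, an eye field factor, was at 0.391 and 0.640 FPKM.

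Across 31 families of transcription factors, 105 of 307 genes (34.2%) passed, against 54.8% of protein-coding genes. SOX4 at 87.3 and 90.8 FPKM and SOX11 at 83.4 and 81.6 FPKM, the SOXC factors of young neurons, were the highest of these genes. ID4, an inhibitor of basic helix-loop-helix factors, came next at 61.7 and 58.7 FPKM. POU3F3, a POU factor of neural progenitors, stood at 31.5 and 34.4 FPKM. PBX3, a TALE cofactor, stood at 27 and 25.3 FPKM. All 5 ZIC genes passed, and neighbours on the genome differed in level: ZIC1 at 13.6 and 15.7 FPKM was 7.78-fold and 7.86-fold above ZIC4, which lies 2821 bases away on chromosome 3, and ZIC2 at 9.02 and 10.2 FPKM was 3.82-fold and 4.28-fold above ZIC5, 9874 bases away on chromosome 13. PAX6 was the 1 of 9 PAX genes that passed. No member of the HOX, IRX, GATA or TFAP2 families did. Among 22 proneural factors 3 passed, and NEUROD1, of young neurons, stood at 0.225 and 0.127 FPKM.

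**Figure D2:**
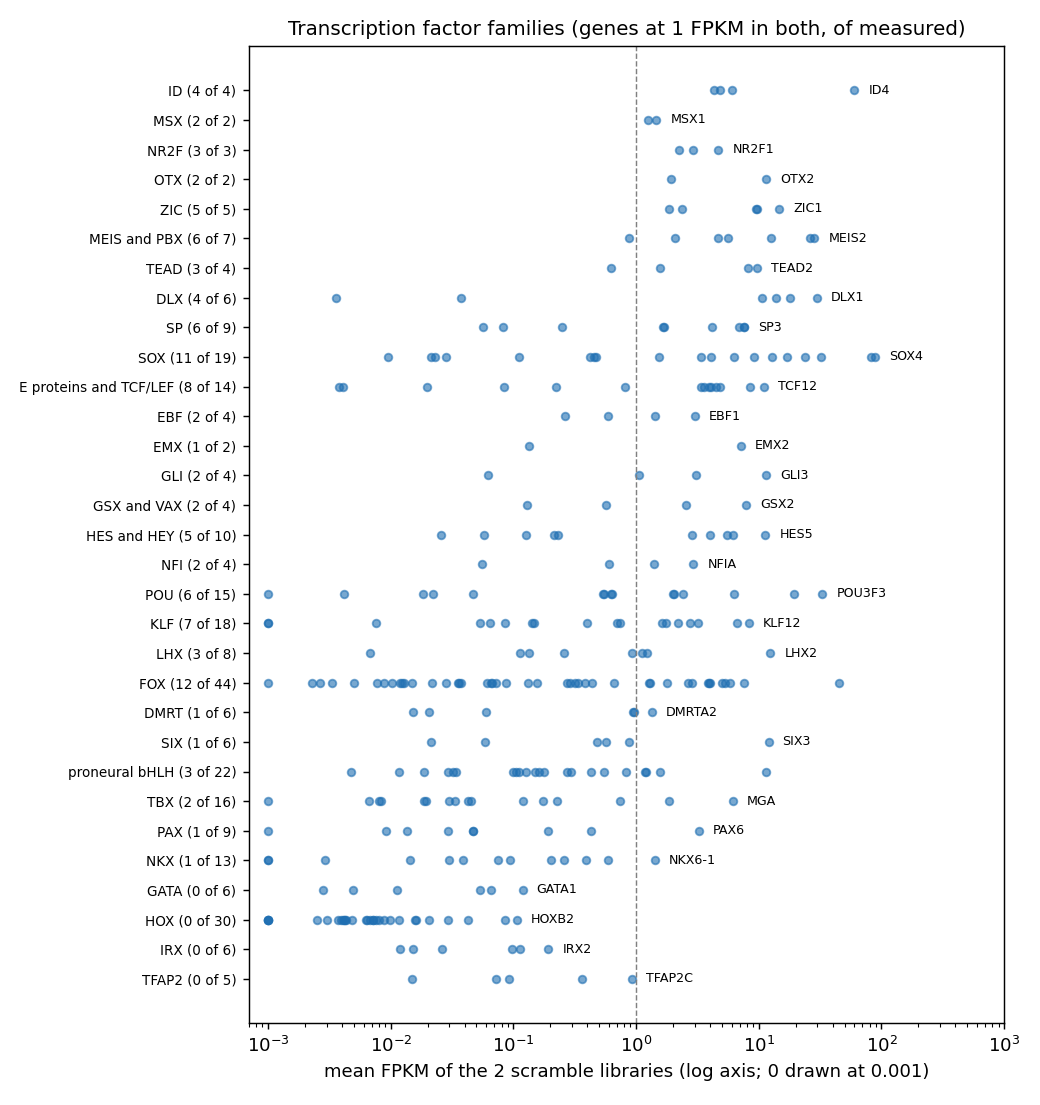
Mean FPKM over both scramble libraries (horizontal log axis) for each gene (point) of 31 transcription factor families, ordered by the share of genes at 1 FPKM or more in both libraries; the highest gene is named for most families, 0 is drawn at 0.001, and the dashed line is 1 FPKM. The ID, MSX, NR2F, OTX and ZIC families lie wholly to the right of the line, and the GATA, HOX, IRX and TFAP2 families wholly to its left.

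Pan-neuronal genes were at high levels beside the progenitor genes. Of 23, 21 passed and 18 were at 5 FPKM or more. MAP1B, a microtubule-associated protein of growing axons, stood at 241 and 219.8 FPKM, and DCX, the microtubule protein doublecortin of migrating neurons, at 118 and 112 FPKM. STMN2, a tubulin-binding protein of growth cones, stood at 103 and 99.4 FPKM and MAP2, of dendrites, at 80.3 and 69.4 FPKM. TUBB3, a neuronal tubulin, was at 30.1 and 44.8 FPKM, below VIM in each library with ratios of 0.550 and 0.743. Genes of later neurons were low: RBFOX3, which encodes NeuN, stood at 0.441 and 0.624 FPKM, 267-fold and 179-fold below DCX, and NEFH, the heavy neurofilament, at 0.637 and 0.586 FPKM. Most genes of both lists were thus present, 22 of 24 progenitor genes and 21 of 23 pan-neuronal genes, while RBFOX3 and NEFH were below the threshold.

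Genes of GABA neurons exceeded those of glutamate neurons. GAD2, a GABA-synthesizing enzyme, stood at 12.6 and 12.9 FPKM, and GAD1, the other such enzyme, at 4.34 and 4.15 FPKM. SLC32A1, the vesicular GABA transporter, was at 4.28 and 6.91 FPKM. SLC17A6, the vesicular glutamate transporter VGLUT2, stood at 1.64 and 1.45 FPKM, so that GAD2 was 7.71-fold and 8.91-fold higher, and SLC17A7, VGLUT1, stood at 0.0321 and 0.0431 FPKM. Of 16 genes of other transmitters 0 passed, and the highest was DDC, the decarboxylase of dopamine and serotonin synthesis, at 0.886 and 0.974 FPKM. Among interneuron subtype genes, SCGN, a calcium-binding protein, stood at 5.45 and 5.78 FPKM, SST, the somatostatin gene, at 2.41 and 3.48 FPKM, and PVALB, the parvalbumin gene, at 0.0261 and 0.0158 FPKM.

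Cortical layer genes were present in part. Of 10 deep-layer genes 8 passed, led by TLE4, a corepressor, at 15.4 and 15.7 FPKM and BCL11B, a zinc finger factor that striatal neurons also express, at 10.9 and 11.5 FPKM. FEZF2, a factor of subcerebral projection neurons, stood at 2.44 and 3.56 FPKM. CUX1, a homeobox gene of upper layers, stood at 5.20 and 5.84 FPKM and RORB, a nuclear receptor of layer neurons, at 2.33 and 1.99 FPKM. RELN, the secreted reelin of Cajal-Retzius cells, stood at 8.01 and 8.09 FPKM and the chemokine receptor gene CXCR4 at 7.49 and 9.06 FPKM, whereas TP73, a factor of Cajal-Retzius cells, was at 0.290 and 0.297 FPKM.

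Synaptic genes were at moderate levels. Of 18 genes of vesicles and release 15 passed, with VAMP2, a vesicle SNARE, at 18 and 19.96 FPKM, SYT1, the calcium sensor of release, at 11.3 and 9.79 FPKM and SYN1, a synapsin, at 2.85 and 4.12 FPKM. Of 23 postsynaptic genes 15 passed (65.2%, against 54.8% of protein-coding genes). The AMPA receptor subunit GRIA2 stood at 9.34 and 7.76 FPKM. GRIN2B, an NMDA receptor subunit of young neurons, stood at 2.47 and 2.23 FPKM, 10.4-fold and 9.78-fold above GRIN2A. SCN3A, a sodium channel of the fetal brain, led the 12 channel genes at 6.56 and 5.57 FPKM. SCN2A, another sodium channel, was at 1.42 and 1.25 FPKM, 4.35-fold and 4.82-fold above SCN1A. SLC12A2, the chloride importer NKCC1, stood at 2.56 and 2.20 FPKM, above the exporter SLC12A5 (KCC2) at 1.08 and 1.53 FPKM.

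Glial genes were mostly below the threshold. Of 15 astrocyte genes 6 passed, and several of these are also expressed by radial glia: GJA1, a gap junction protein, stood at 11.1 and 10.4 FPKM, SLC1A3, a glutamate transporter, at 6.87 and 5.96 FPKM and SLC1A2, another glutamate transporter, at 6.48 and 6.24 FPKM. The astrocyte filament gene GFAP stood at 0.0270 and 0.0599 FPKM, which corresponds to 15.3 and 56 reads, and the water channel gene AQP4 at 0.0458 and 0.0788 FPKM. For oligodendrocytes 1 of 13 genes passed, CNP at 5.43 and 6.48 FPKM, while OLIG2 stood at 0.464 and 0.634 FPKM and MBP at 0.172 and 0.215 FPKM. Of 9 microglia genes 0 passed. RFX3, a factor of cilia formation, was the 1 of 10 ependymal genes that passed, at 7.63 and 6.58 FPKM, and FOXJ1, the regulator of motile cilia, had 0.913 and 1.67 FPKM.

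Of 102 genes of pluripotent cells and of lineages outside the brain, 7 passed (6.86%, against 54.8% of protein-coding genes), and 60 were below 0.1 FPKM in both libraries. Of these 7, 4 came from the pluripotency list of 16: DNMT3B, a DNA methyltransferase, at 4.39 and 4.57 FPKM, DPPA4 at 2.91 and 2.53 FPKM, SALL4, a zinc finger factor, at 2.59 and 2.75 FPKM, and LIN28A at 2.08 and 2.45 FPKM. The core pluripotency factors were near 0: NANOG had 2 reads and 1 read in the libraries, and POU5F1 stood at 0.00438 and 0.00397 FPKM. The other three were NGFR, a neurotrophin receptor in the neural crest list, at 2.16 and 3.07 FPKM, EPCAM, an epithelial adhesion molecule in the surface ectoderm list, at 1.26 and 1.33 FPKM, and COL3A1, a collagen in the mesenchyme list, at 3.16 and 3.49 FPKM. The defining factors of these lineages were low, with SOX10 of neural crest at 0.384 and 0.518 FPKM, CDH1 of epithelium at 0.0781 and 0.0661 FPKM and PRRX1 of mesenchyme at 0.385 and 0.335 FPKM. No gene passed in the lists for muscle (11 genes), endothelium (10), blood (11) and endoderm (12).

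**Figure D3:**
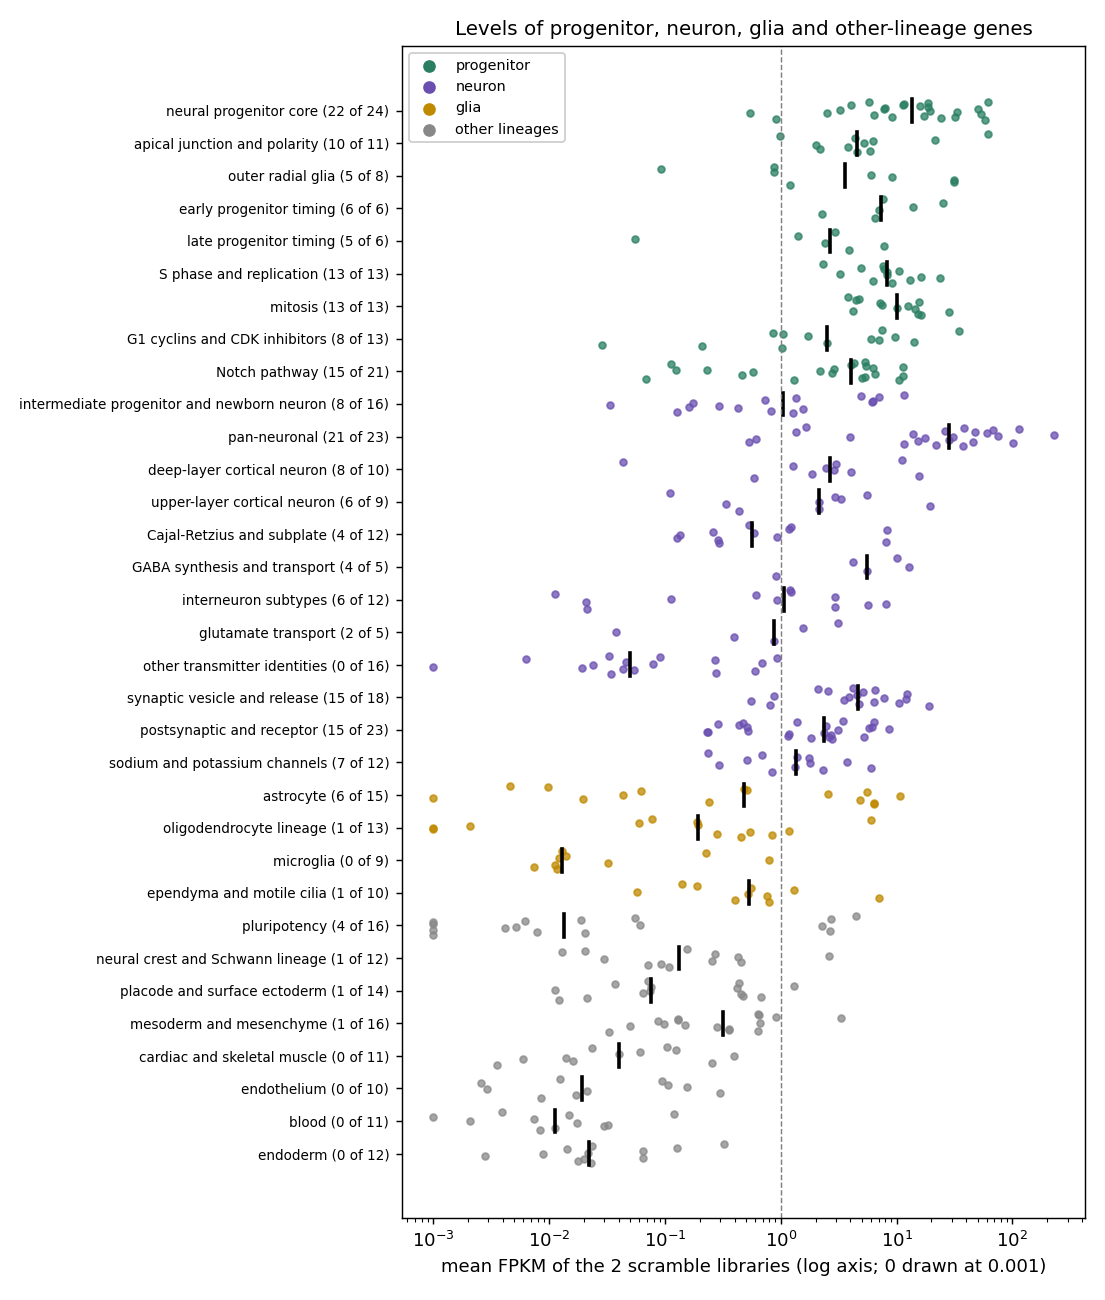
Mean FPKM over both scramble libraries (horizontal log axis) of each gene (point) in the progenitor, neuron, glia and other-lineage lists; black bars are list medians, numbers in brackets are genes at 1 FPKM or more in both libraries of those measured, 0 is drawn at 0.001, and the dashed line is 1 FPKM. S-phase and mitosis genes all lie to the right of the line, and microglia, muscle, endothelium, blood and endoderm genes all lie to its left.

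The Notch pathway keeps progenitors from becoming neurons. Most, but not all, ligands of the DLL and JAG families on one cell activate NOTCH receptors on the next. The released receptor fragment joins RBPJ on DNA and switches on HES and HEY genes. Of 21 pathway genes, 15 passed. Among the ligands, DLL1 stood at 4.46 and 6.21 FPKM, DLL3 at 3.35 and 5.24 FPKM, JAG1 at 2.17 and 2.19 FPKM and DLL4, a ligand of vessels, at 0.135 and 0.0912 FPKM. Among the receptors, NOTCH1 was at 9.03 and 13.9 FPKM, NOTCH2 at 5.10 and 5.52 FPKM and NOTCH4 at 0.0641 and 0.0745 FPKM. RBPJ itself stood at 11.2 and 9.89 FPKM.

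Among the targets, HES5 stood at 7.75 and 14.9 FPKM, HES4 at 3.28 and 7.64 FPKM, HES1 at 3.77 and 4.30 FPKM and HEY1 at 2.92 and 2.82 FPKM, whereas HEY2 was at 0.0945 and 0.157 FPKM and HEYL at 0.244 and 0.221 FPKM. Across the HES and HEY family 5 of 10 genes passed, and HES2, HES3 and HES7 were below 0.25 FPKM in both libraries. The 250 bases upstream of the start site are shown for 4 of these genes, 3 present and 1 near 0, on the strand of the gene, 5′ to 3′, from RefSeq on GRCh38.p14. The motif GTGGGAA, the core of the RBPJ binding site, or its reverse complement TTCCCAC is in capitals.
HES1 (chr3:194135898-194136147, plus strand): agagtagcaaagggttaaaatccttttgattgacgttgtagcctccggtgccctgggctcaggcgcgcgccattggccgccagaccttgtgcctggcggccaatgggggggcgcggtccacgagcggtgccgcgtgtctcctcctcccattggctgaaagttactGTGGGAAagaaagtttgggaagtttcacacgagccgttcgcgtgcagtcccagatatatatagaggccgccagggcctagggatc
HES5 (chr1:2530264-2530513, minus strand): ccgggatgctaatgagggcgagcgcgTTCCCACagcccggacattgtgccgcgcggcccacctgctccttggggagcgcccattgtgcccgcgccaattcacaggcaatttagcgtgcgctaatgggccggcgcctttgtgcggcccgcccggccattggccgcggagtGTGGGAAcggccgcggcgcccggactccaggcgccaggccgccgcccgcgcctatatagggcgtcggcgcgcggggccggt
HES4 (chr1:1000098-1000347, minus strand): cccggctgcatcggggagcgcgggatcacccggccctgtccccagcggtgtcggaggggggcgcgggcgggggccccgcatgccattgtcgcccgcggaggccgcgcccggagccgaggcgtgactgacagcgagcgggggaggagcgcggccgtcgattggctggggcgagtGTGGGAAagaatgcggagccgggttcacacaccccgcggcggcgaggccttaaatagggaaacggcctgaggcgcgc
HEY2 (chr6:125749382-125749631, plus strand): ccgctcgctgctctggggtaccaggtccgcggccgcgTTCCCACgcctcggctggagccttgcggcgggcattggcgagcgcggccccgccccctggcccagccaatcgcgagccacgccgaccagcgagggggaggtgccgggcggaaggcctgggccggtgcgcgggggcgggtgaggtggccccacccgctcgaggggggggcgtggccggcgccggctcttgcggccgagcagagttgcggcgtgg
The motif was found in 5 of 6 HES and HEY promoters searched, on either strand, with HES6 the one without a match. It occurs in 1906 of 35116 promoter windows of the same length (5.43%). HES5 holds it once on each strand, as do 19 windows in all (0.0541%). HEY2 holds a match too, at a level near 0, and a match is only a description of the letters in this window.

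The Notch genes differed between the libraries. Of the 15 that passed, 13 were higher in replicate 2, with a median of 1.39-fold, and HES4 was 2.33-fold higher there. The median log2 ratio of replicate 2 to replicate 1 was 0.479 for these 15 genes and 0.043 over all 10124 protein-coding members. Over 9824 protein-coding members with a transcript sequence, the log2 ratio of replicate 2 to replicate 1 rose with the GC content of the longest transcript, with Pearson's r of 0.864 and Spearman's rho of 0.868 across genes, which are not independent replicates. Split by GC content into 5 equal groups, the median ratio was 0.871 in the 1965 genes of lowest GC content and 1.34 in the 1965 genes of highest. The GC content was 73.9% for HES4, 66.2% for HES5 and 62.9% for NOTCH1, against 49.9% for HES1, which differed less between libraries. The median GC content of the Notch genes was 62.7%, within the range of the group of highest GC content (56.7% to 74.5%). Their median of 1.39-fold was near the 1.34 of that group, so a difference of this size was not particular to Notch genes. The part of GC content in their difference was not tested. PAX6 (41.5%) and DCX (42.4%) were slightly lower in replicate 2.

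**Figure D4:**
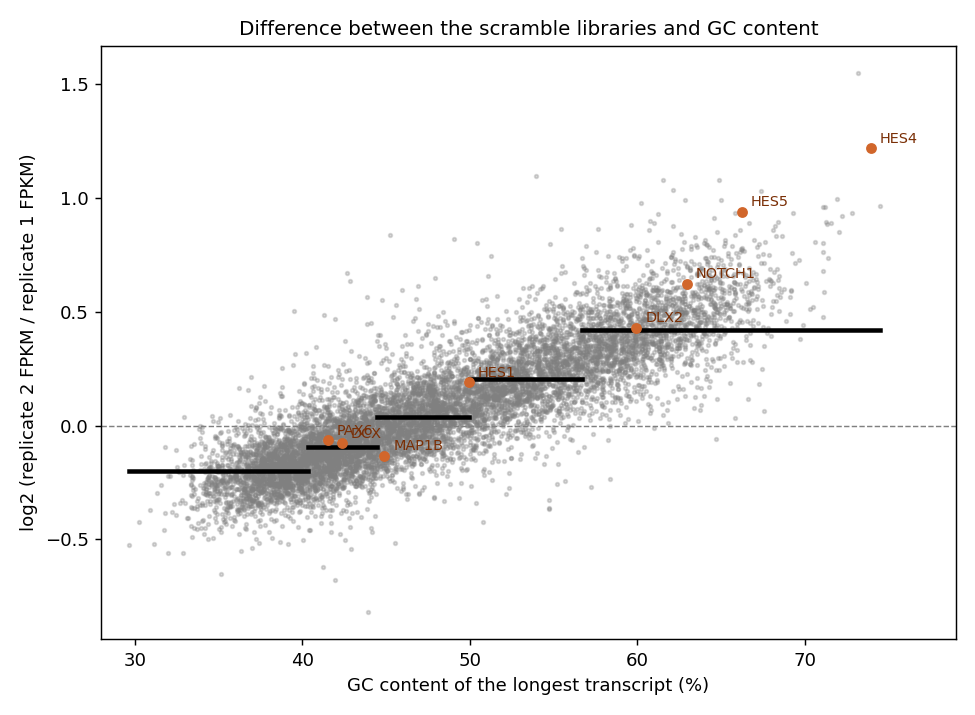
log2 ratio of FPKM in replicate 2 to replicate 1 (vertical axis) against the GC content of the longest transcript in percent (horizontal axis) for 9824 protein-coding genes at 1 FPKM or more in both libraries (grey points); black bars are medians of 5 equal groups of genes by GC content, drawn over the range of each group, and 8 genes named in the text are in orange. The bars rise from -0.20 to 0.42, and HES4 lies at 1.22.

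For 29 gene pairs the order of the levels was compared within each library. The first gene was higher, with ranges that did not overlap, in 20 pairs, and the second in 8. The exception was the pair of BAF chromatin remodeller subunits ACTL6A, of progenitors, at 5.58 and 5.30 FPKM, and ACTL6B, of neurons, at 4.87 and 6.07 FPKM, whose order differed between the libraries. For the same complex, DPF1 of neurons, at 5.60 and 7.42 FPKM, stood slightly above DPF2, at 5.06 and 5.51 FPKM, and SS18 of progenitors was 2.15-fold and 2.004-fold above SS18L1 of neurons. The splicing repressor PTBP1 stood at 6.64 and 8.61 FPKM, below its neuronal paralog PTBP2 at 11.4 and 9.75 FPKM; PTBP1 has a GC content of 61.7% and PTBP2 of 34.7%, and the ratio moved from 0.582 to 0.884 between the libraries.

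**Figure D5:**
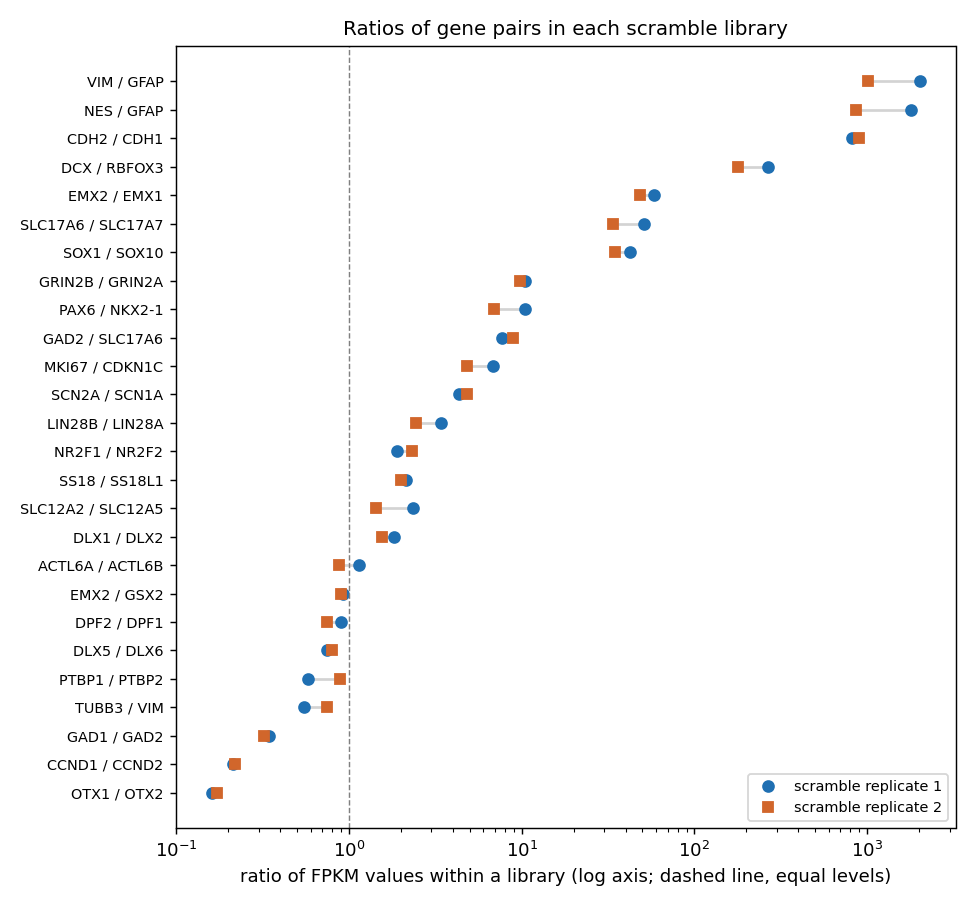
Ratio of the FPKM of the first to the second gene (horizontal log axis) for gene pairs in scramble replicate 1 (blue circles) and replicate 2 (orange squares); the dashed line marks equal levels, and 26 of the 29 pairs are shown. The ACTL6A to ACTL6B pair alone has points on both sides of the line, at 1.15 and 0.874, and the OTX1 to OTX2 pair is lowest at 0.160 and 0.172.

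The highest values in the table belonged to noncoding RNAs. Small structured RNAs made up 34.3% and 45.1% of the summed FPKM, led by 3 of them in an order that differed between the libraries. RN7SK, a regulator of transcription elongation, stood at 11193 and 15292 FPKM and was highest in replicate 1. RN7SL1, RNA of the signal recognition particle, stood at 7787 and 20066 FPKM and was highest in replicate 2, next to RN7SL2, of the same particle, at 8097 and 19996 FPKM. Mitochondrial genes made up 9.40% and 6.36%, and COX1, a subunit of cytochrome c oxidase, led its coding genes at 1989 and 1930.5 FPKM. Protein-coding genes made up 36.7% and 30.7%. Among them, TMSB10, an actin-binding peptide, was highest at 436 and 542 FPKM, followed by the cytoplasmic actins ACTG1 at 392 and 523 FPKM and ACTB at 403 and 499 FPKM, and by TUBA1A, the alpha-tubulin of young neurons, at 387 and 453 FPKM. Histone genes of the replication-dependent clusters took 16 of the 40 highest places, with HIST1H4J at 256 and 418 FPKM and HIST1H1C at 259.7 and 324 FPKM, and 63 of 71 passed the threshold. These genes make transcripts without a poly(A) tail, and the libraries were made from total RNA depleted of ribosomal RNA. NNAT, an imprinted neuronatin gene, stood at 172 and 217 FPKM and MARCKSL1, a membrane-actin linker, at 199 and 257 FPKM.

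Some values may include reads of a neighbouring, overlapping or near-identical gene, which was not tested. PARP2, a DNA repair enzyme, was listed at 126 and 225 FPKM, and its first annotated base lies 174 bases from RPPH1, the RNA of RNase P, at 892 and 1615 FPKM. EEF1A1P5, a pseudogene of a translation elongation factor, was listed at 933 and 1055 FPKM, above its parent gene EEF1A1 at 207 and 212 FPKM; reads of near-identical copies are split by the counting in a way not given in the sources used here. TUBB3 shares 35.8% of its exon bases with AC092143.1, an overlapping gene on the same strand, and TYMS, of nucleotide synthesis, shares 39.1% with ENOSF1 on the opposite strand. LOC107987206, an entry without a class in the annotations used, was highest of all outside the small and mitochondrial RNAs, at 2097 and 5404 FPKM, and differed 2.58-fold between libraries.

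Of 25 long noncoding RNAs in a list of named genes, 19 passed (76.0%). Of all 9252 long noncoding RNAs in the table, 8.9% passed. MALAT1, a nuclear RNA, stood at 776 and 665 FPKM, and NEAT1, the scaffold of paraspeckles, at 1.66 and 1.60 FPKM. DLX6-AS1, transcribed in ganglionic eminence cells from the DLX5 and DLX6 locus, stood at 16.9 and 15.3 FPKM, and LINC01551 at 25.1 and 22.9 FPKM. SOX2-OT, which contains SOX2 in an intron, was at 2.82 and 2.41 FPKM. MEG3, an imprinted RNA, stood at 0.0448 and 0.0572 FPKM. LINC00461, a brain RNA that hosts a miR-9 hairpin, stood at 29.96 and 26.7 FPKM. CDR1-AS, the locus of a circular RNA with many miR-7 sites, stood at 89.7 and 73.9 FPKM; it was chosen after its value was seen, and the gene-level value does not tell circular from linear RNA.

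Of 24 neural miRNA loci, 12 passed (50%), against 31.5% of all small structured RNAs. These libraries measured RNA over the hairpin locus and not the mature miRNA. The hairpins are short, so that values near 1 FPKM rest on few reads: MIR20A, the lowest by the mean of those that passed, had 3.5 and 7.08 reads over 71 bases, against a floor of about 3 reads, and MIR9-2 had 182 and 336 reads. MIR9-2 was the highest at 45 and 50.1 FPKM, and all of its bases lie in exons of LINC00461, so host and hairpin reads cannot be told apart. MIR9-1 stood at 1.45 and 1.89 FPKM and MIR9-3 at 0.555 and 2.59 FPKM. Below MIR9-2 in level, MIR124-2 stood at 16.9 and 21.4 FPKM and MIR125B1 at 12.4 and 17.8 FPKM. MIR7-1 stood at 8.09 and 7.18 FPKM and lies wholly within annotated exons of HNRNPK (63.3 and 63.6 FPKM). Mature sequences are shown for 3 of the 4 loci with the highest mean, MIR9-2, MIR125B1 and MIR7-1; they are from RefSeq on GRCh38.p14, 5′ to 3′, with the seed (bases 2 to 8) in capitals and the position from which each was read.
miR-9-5p (chr5:88666902-88666924, minus strand): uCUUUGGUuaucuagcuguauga
miR-9-3p (chr5:88666866-88666887, minus strand): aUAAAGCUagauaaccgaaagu
miR-125b-5p (chr11:122099809-122099830, minus strand): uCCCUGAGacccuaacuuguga
miR-7-5p (chr9:83969811-83969834, minus strand): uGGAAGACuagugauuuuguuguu
No 2 of these 4 share a seed. The miR-9-5p sequence is the same for the 3 MIR9 loci, so the sequence alone does not tell from which locus a mature miR-9 comes. Of the 5 loci of the pluripotency cluster MIR302 and MIR367, 2 passed, MIR302A at 1.09 and 1.03 FPKM and MIR302C at 1.26 and 1.43 FPKM, and MIR367 stood at 1.10 and 0.476 FPKM. These values rest on 3.5 and 5.5 reads for MIR302A and 4 and 7.5 reads for MIR302C, also near that floor.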

How the data were processed

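Gene-level expression was measured by sequencing of total RNA depleted of ribosomal RNA (RiboMinus) from 2 scramble libraries, made with the KAPA RNA HyperPrep kit, per the labels' protocols. The authors deposited FPKM values, 1 for each symbol in each library, per the file headers. Trimmomatic 0.39, HISAT2 2.1.0, SAMtools 1.9, featureCounts 2.0.1 and GRCh38 are named, per the submitters' processing notes; the annotation, strand setting and handling of multi-mapping reads: not given in the sources used here. Of 59151 entries, 29 had symbols turned into dates and 4 carried a duplicated symbol.

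From the values, genes at 1 FPKM or more in both libraries were kept, and levels were read for 57 gene lists (682 genes), 31 transcription factor families and 29 gene pairs. Outside these, the highest genes overall and by class were named, with the exceptions stated. Members and lists were chosen with earlier results of these data known. Class came from GENCODE release 29 or RefSeq symbols for 34984 entries; 23 list genes were not analysed here, and some of the measured genes are counted in their lists but not reported here by name. Library totals were recovered from the FPKM steps and GENCODE exon lengths, a procedure tested on simulated data. The simulation used whole reads and the same GENCODE lengths for every gene, so it did not cover fractional counts or other lengths. Read numbers are given for genes whose values came out as whole hundredths of a read in both libraries within 0.0003 reads (5656 of 18421 genes with over 20 reads); reads shared between genes may have been counted in fractions. Intervals and floors cover counting error only. With 2 libraries of 1 group no test was made. Tools were Python 3.11.15, pandas 2.3.3, numpy 2.4.6 and scipy 1.17.1. Other thresholds, TPM scaling, single libraries and another gene length were tried.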

Additional observations from a re-analysis of the deposited data

How the results depend on the processing

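The count of 16731 genes at 1 FPKM in both libraries became 4280 at a threshold of 5 FPKM, and 192 in place of 362 of the 682 list genes remained above it. Scaled to TPM, in which 1 TPM corresponds to 0.184 and 0.238 FPKM, 29359 genes passed, and 30840 passed with small structured and mitochondrial RNAs left out of the total; the larger counts follow from the lower threshold in FPKM. A single library gave 17647 to 18309 genes and 368 to 375 list genes. Of the 20 highest transcripts outside small structured and mitochondrial RNAs, 19 were shared with the ranking in either library alone and 12 with the ranking of protein-coding genes. With a pseudocount of 1, 80 members were over 2-fold apart between the libraries. The counts by class in the Results used no pseudocount, so they can be larger. The count over all members was 221 with a pseudocount of 0.1 and 35 at 5 FPKM. It was 603 after rescaling without small structured and mitochondrial RNAs, which also admits lower genes. The first gene of a pair was higher in 20 of 29 pairs by means, and in 20 to 21 with a single library. The ratio of ACTL6A to ACTL6B turned from 0.995 by means to 1.15 without replicate 2, was 0.874 without replicate 1, and was 1.0003 by geometric means. The order of PAX6 and EMX2 depended on the transcript length used, with all reads of each gene kept. No paired analysis was possible because only 1 group was described. Genes under about 3 reads, such as NANOG and EN1, are not told from 0 at this depth.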
